A study of Mus musculus with 4 samples.

Results

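Mitosis is driven by protein kinases and by timed protein destruction. Cdk1 with cyclins A and B starts it, the Aurora and Polo kinases build the spindle, the Bub and Ttk kinases hold the spindle checkpoint until every chromosome is attached, and the anaphase-promoting complex with Cdc20 and Ube2c then destroys cyclin B and securin so that sisters part and the cell divides. Transcripts of these genes accumulate together in G2 and M phase under the MuvB, B-Myb and FoxM1 regulators, so in a tissue they are read as a measure of how many cells are dividing, and in the pubertal mammary gland division is concentrated in the end buds of growing ducts. Aurora A, the product of Aurka, works at centrosomes and spindle poles and is amplified or overexpressed in many breast tumours.

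The genes described here are 37 named mitosis genes, of which 35 had a probe set that the platform annotation gives to that gene alone. Each of the 35 had 1 such probe set. Ncapg, a condensin subunit, shares its probe set with Lcorl, and no probe set of Ccnb1, which encodes cyclin B1, was used here. Of the 35, 33 were among the 11668 genes tested and Bub1 and Espl1 were too dim, out of 22180 genes with a probe set of their own. The list was assembled around Aurka because Aurka was already known to be higher in the MMTV-Cre arrays, so the difference of Aurka is given as a description with no test. The question was whether the other mitosis genes moved with it.

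The samples were mammary epithelial cells from the inguinal glands of mice aged 4 weeks on a congenic FVB/NJ background. The 2 MMTV-Cre samples came from carriers of a transgene whose Cre recombinase is under the MMTV long terminal repeat, a promoter active mainly in mammary epithelium, and the 2 wild-type samples came from littermates without it. No other allele or treatment is named in the labels, and the sources used here do not give the Cre line or how many mice made up a sample. Each sample was measured on 1 array, and values are log2 expression after RMA, a method that removes background, equalises the arrays and sums the probes of a probe set. All 10 luminal markers searched for lay above the limit for dim genes (a mean of 2.84, the median of all probe sets) and their mean level ran from 7.17 to 7.28 over the arrays. Of 7 basal markers 6 lay above it, and so did 7 of 7 fibroblast and 6 of 6 endothelial markers, so the preparations also held transcripts of other cells. The 7 measured T cell markers averaged 5.90 in wild-type replicate 1, where the other 3 arrays gave 2.91 to 3.09, and the 5 B cell markers averaged 3.94 there against 2.59 to 2.69. Markers of other cells varied too. Endothelial markers averaged 5.74 and 6.15 in the MMTV-Cre arrays and 5.66 and 6.15 in the wild-type arrays, replicate 1 first. Fibroblast markers averaged 7.71 in MMTV-Cre replicate 2 and at most 7.26 in the other arrays. Macrophage markers ran from 4.17 in MMTV-Cre replicate 1 to 4.74 in MMTV-Cre replicate 2. Values without wild-type replicate 1 are given where it stood far from the others.

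The promoters are shown first because many mitosis genes are known to be timed through promoter elements, whose letters were searched for here. RefSeq promoter windows (mouse GRCm38.p6, 250 bases before to 50 after a transcription start) existed for 28 of the 35 genes, 30 windows in all. Both strands were searched for TTTGAA, the letters of the cell cycle genes homology region (CHR) that MuvB complexes bind, and for CCAAT, the letters of the box bound by NF-Y, and matches of the 2 motifs can share an end base. TTTGAA occurred in 24 of 30 windows (80.0%), against 17.9% of all 32851 RefSeq windows and 15.4% of those whose gene had a probe set of its own. CCAAT occurred in 25 of 30 (83.3%), against 37.4% of all windows, and 22 of 30 (73.3%) held both, against 7.0%. GGGCGG, the letters of the GC box, was also searched for and occurred in 24 of 30 (80.0%), against 35.7% of all windows. Of windows whose gene had a probe set of its own, 46.6% held it. A higher share than in all windows was thus not particular to TTTGAA and CCAAT. A match of letters is a description and not a binding site.

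The 100 bases upstream of the start are printed for the tested genes whose 2 groups of arrays did not overlap. These are Aurka (chr2:172370571-172370670, minus strand), Ube2c (chr2:164769829-164769928, plus), Racgap1 (chr15:99651657-99651756, minus), Nek2 (chr1:191821373-191821472, plus), Kif11 (chr19:37376282-37376381, plus), Birc5 (chr11:117849137-117849236, plus) and the first of 2 overlapping windows of Ect2 (chr3:27153879-27153978, minus). Smc4, the remaining gene of that kind, had no promoter window. In Aurka and Ect2 the annotated gene extends past the start used, so the printed bases lie inside it, as do some of those of Nek2. Sequences run 5′ to 3′ on the strand of the gene, and capitals mark TTTGAA or CCAAT, or the same motifs on the opposite strand.
Aurka: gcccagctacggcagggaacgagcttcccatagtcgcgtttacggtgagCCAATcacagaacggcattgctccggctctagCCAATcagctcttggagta
Ube2c: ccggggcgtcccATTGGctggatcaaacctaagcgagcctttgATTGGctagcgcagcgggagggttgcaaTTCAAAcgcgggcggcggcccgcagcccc
Racgap1: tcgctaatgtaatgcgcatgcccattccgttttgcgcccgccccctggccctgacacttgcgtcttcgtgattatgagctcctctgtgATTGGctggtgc
Nek2: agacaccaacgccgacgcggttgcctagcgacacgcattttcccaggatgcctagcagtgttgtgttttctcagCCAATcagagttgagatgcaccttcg
Kif11: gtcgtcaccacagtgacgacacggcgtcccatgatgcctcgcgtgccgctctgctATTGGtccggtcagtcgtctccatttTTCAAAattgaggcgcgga
Birc5: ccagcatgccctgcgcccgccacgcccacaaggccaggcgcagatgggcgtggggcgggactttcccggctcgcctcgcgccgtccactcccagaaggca
Ect2: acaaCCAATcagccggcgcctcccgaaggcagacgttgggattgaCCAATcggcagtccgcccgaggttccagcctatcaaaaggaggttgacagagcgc

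Aurka carried CCAAT beginning 51 and 19 bases before its start and TTTGAA beginning at base 33 of the transcript, counted from 1 at the start and not printed here. In Kif11 the pair stood 45 and 19 bases before the start, and in Ube2c the nearest pair stood 57 and 29 bases before it. Nek2 held CCAAT without TTTGAA, and Birc5 held neither motif in its window. Aurka therefore had the motif pair that most of the list had. The 18 other tested genes with both motifs had a median log2 difference, MMTV-Cre minus wild-type, of −0.0069 and a range from −0.46 to 0.26.

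Aurka, the centrosome and spindle pole kinase, had the largest difference of the list. It measured 3.92 and 3.99 with MMTV-Cre against 3.23 and 3.40 in the wild-type arrays, a mean of 3.95 ± 0.05 (SD, n = 2) against 3.32 ± 0.12 (SD, n = 2). Both MMTV-Cre values lay above both wild-type values, with a log2 difference of 0.64, or 1.56-fold, which ranked 26 upward among the 11668 genes tested. The 32 other tested genes had a median difference of −0.0069, close to the −0.0039 of all genes tested, and 0.014 under quantile normalization and 0.017 under median centring. They ran from −0.46 for Cenpa to 0.26 for Racgap1. Differences above 0 were found for 14 of them and below 0 for 18, of which 5 near 0 turned above 0 under quantile normalization or median centring.

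**Figure D1:**
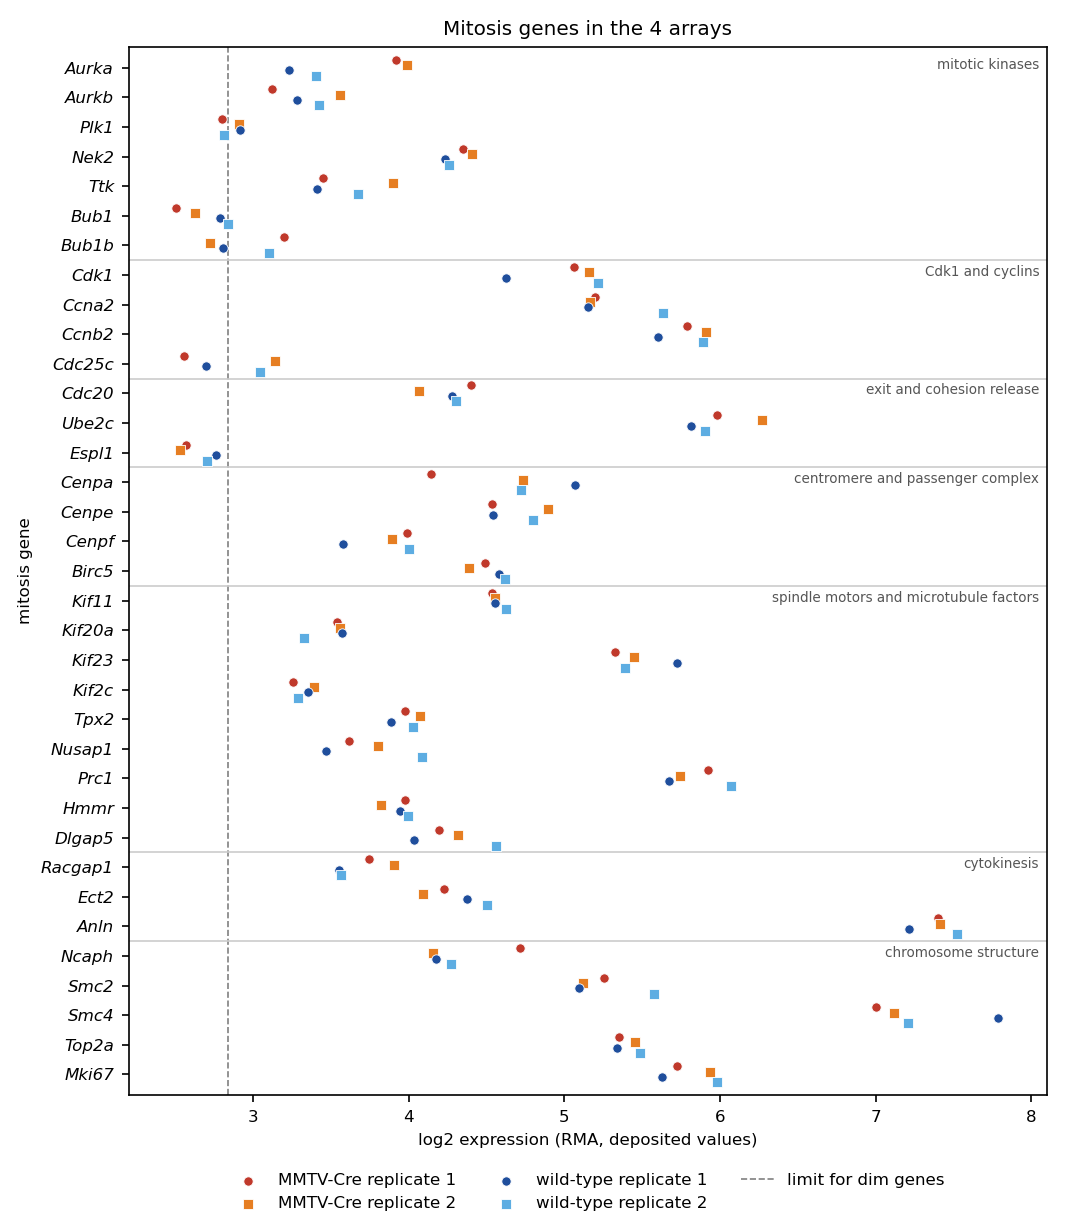
The log2 expression (x axis) of the 35 measured mitosis genes (y axis, grouped by role) is plotted for each of the 4 arrays as a point, offset vertically for legibility, with a dashed line at the limit for dim genes, 2.84. In Aurka the MMTV-Cre points (3.92 and 3.99) lie clear of the wild-type points (3.23 and 3.40), while in most other rows the colours mix.

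By limma, 0 of the 33 tested mitosis genes passed at an adjusted p under 0.05, as did 0% of all genes tested (smallest adjusted p = 0.964). At an unadjusted p under 0.05, 0 of the 32 genes other than Aurka were reached, against 4.32% of all genes. With 2 arrays a group, the half-width of the unadjusted 95% interval of these 32 genes had a median of 0.41 log2 units. For a typical member a smaller difference thus left 0 inside its interval. The adjusted threshold asked for more. In simulated data with larger differences planted as well, 0.2% of planted differences of 0.5 passed it and 43.4% of those of 1. A difference as large as that of Aurka lay outside the interval of 30 of the 32, and inside it for Cdk1 (−0.36 to 0.74) and Ncaph (−0.32 to 0.74). Because Aurka was chosen for its difference, and the uncertainty of its value was left out, this count is a description. It is no test of whether these genes moved with Aurka. An exact permutation test of 2 samples against 2 cannot give a two-sided p under 0.333.

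**Figure D2:**
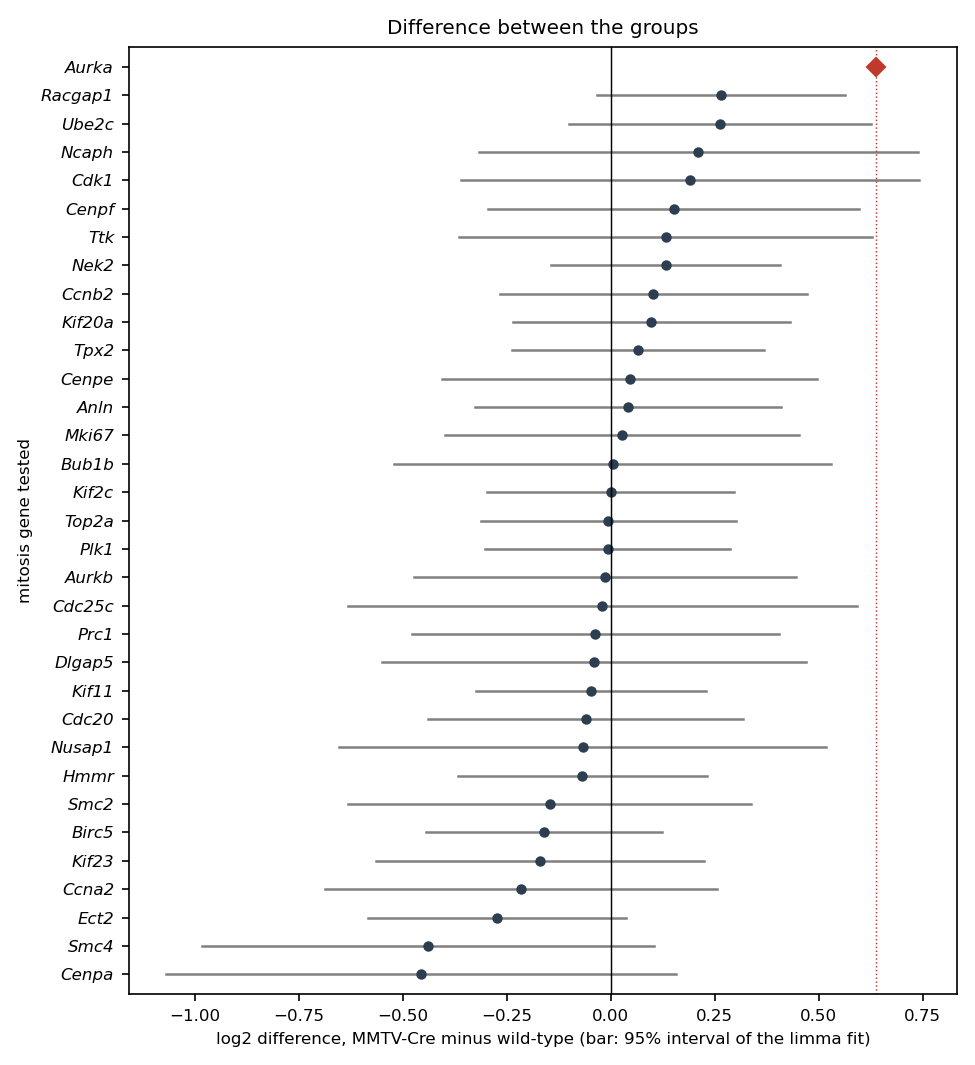
The difference in log2 expression, MMTV-Cre less wild-type (x axis), is given for the 33 tested mitosis genes (y axis, sorted), with bars for the 95% interval of the limma fit over n = 2 arrays a group. The diamond and dotted line mark Aurka at 0.64, drawn without an interval because it was chosen for this difference, and every other bar crosses 0.

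Groups that did not overlap were few among the tested genes. Apart from Aurka, 3 of the 32 tested genes were higher in both MMTV-Cre arrays, where 16.7% of all genes tested were, and 4 of 32 were lower in both, where 16.5% were. Neither count stood above its background. Bub1 and Espl1, too dim to test, were also lower in both MMTV-Cre arrays. With them 6 of the 35 measured genes were lower in both, where 16.3% of all genes were with dim ones included. The number of genes with the deviation of Aurka in direction in all 4 arrays was 2 of 32, Nek2 and Racgap1, against 10.9% of all genes.

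Differences of the tested mitotic kinases other than Aurka ran from −0.01 to 0.13. Aurkb and Plk1, just below 0, turned above 0 under quantile normalization and median centring. Aurkb, which encodes the Aurora kinase of the chromosomal passenger complex, measured 3.12 and 3.56 with MMTV-Cre against 3.28 and 3.42 in wild-type, and the wild-type values fell between the MMTV-Cre values. Its difference was −0.01 (95% interval −0.47 to 0.44), and the contrast between Aurka and Aurkb was not tested. Plk1, the Polo kinase that Aurora A activates at mitotic entry, stood at 2.80 and 2.91 against 2.91 and 2.81 and lay at the limit for dim genes. Nek2, a kinase that splits centrosomes, stood at 4.35 and 4.41 against 4.23 and 4.26, a difference of 0.13 (−0.14 to 0.41). The checkpoint kinase Ttk differed by 0.13 (−0.36 to 0.63) with overlapping arrays. Bub1b, which encodes the checkpoint protein BubR1, differed by 0.0046 (−0.52 to 0.53). Bub1, a kinase that marks centromeres for the passenger complex, was dim at 2.51 and 2.63 in MMTV-Cre and 2.79 and 2.83 in wild-type.

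Genes of direct partners of Aurora A lay on both sides of 0. Tpx2, the microtubule protein that binds and activates Aurora A on the spindle, measured 3.98 and 4.07 with MMTV-Cre against 3.89 and 4.03 in wild-type, and the groups overlapped. Its difference was 0.07 (−0.24 to 0.37). Among 8 measured genes of a list of partners and regulators, 0 passed by limma, 0 had an unadjusted p under 0.05, 3 differences lay above 0 and 5 below, and the median was −0.10. Bora, a cofactor through which Aurora A activates Plk1, differed by −0.21 (−0.61 to 0.19), and Cep192, the scaffold that recruits Aurora A to centrosomes, by −0.14 (−0.42 to 0.14). Fzr1, the activator of the anaphase-promoting complex that marks Aurora A for destruction, differed by −0.17 (−0.47 to 0.13). Arhgef2, whose product binds microtubules, differed by 0.17 (−0.16 to 0.49). Of the 8 genes, 2 were higher in both MMTV-Cre arrays, Arhgef2 among them, where 16.7% of all genes tested were. Lower in both were 3, Cep192 and Fzr1 among them, where 16.5% of all genes tested were.

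Cdk1 and its cyclins varied more between the wild-type arrays than between the groups. Cdk1, the kinase at the centre of mitotic entry, measured 5.06 and 5.16 with MMTV-Cre against 4.63 and 5.22 in wild-type. Ccna2, which encodes cyclin A2, stood at 5.19 and 5.16 against 5.15 and 5.63. In each of them wild-type replicate 2 was highest and wild-type replicate 1 lowest, so the MMTV-Cre arrays fell between the wild-type arrays. Ccnb2, which encodes cyclin B2, differed by 0.10 (−0.27 to 0.47), and Cdc25c, a phosphatase that activates Cdk1, by −0.02 (−0.63 to 0.59).

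Of the genes that end mitosis, Ube2c was higher in both MMTV-Cre arrays. Ube2c encodes the ubiquitin-conjugating enzyme of the anaphase-promoting complex, and it stood at 5.98 and 6.27 against 5.82 and 5.90, a difference of 0.26 (−0.10 to 0.63). Cdc20, the activator of that complex at anaphase, differed by −0.06 (−0.44 to 0.32). Espl1, which encodes separase, the protease that cuts cohesin, was dim and stood at 2.57 and 2.53 against 2.76 and 2.70. The 17 other genes of the complex and its regulators had a median difference of −0.02, with 7 above 0 and 10 below, and 0 passed by limma or reached an unadjusted p under 0.05.

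The lowest difference of the list was that of a centromere gene. Cenpa, the histone variant that marks centromeres, measured 4.14 and 4.73 with MMTV-Cre against 5.07 and 4.72 in wild-type, a difference of −0.46 (−1.07 to 0.16). MMTV-Cre replicate 1 was lowest and wild-type replicate 1 highest, and the other arrays were level. The difference was −0.28 without wild-type replicate 1 and −0.16 without MMTV-Cre replicate 1. Birc5, which encodes survivin of the passenger complex, stood at 4.49 and 4.39 against 4.58 and 4.62, a difference of −0.16 (−0.44 to 0.12). The kinetochore motor Cenpe differed by 0.04 and the kinetochore protein Cenpf by 0.15, with overlapping arrays.

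Spindle motors and microtubule factors lay close to 0, with 7 of 9 differences below 0 and a median of −0.04, and Kif2c, at −0.00040, turned above 0 under quantile normalization and median centring. Kif11, the motor that pushes the spindle poles apart, was lower in both MMTV-Cre arrays by a small margin, at 4.53 and 4.55 against 4.56 and 4.63. Its difference was −0.05 (−0.32 to 0.23). Kif23, a motor of the central spindle, had the lowest difference of this group, −0.17 (−0.56 to 0.22), and was highest in wild-type replicate 1, without which the difference was −0.0021. Nusap1 and Dlgap5, which bind spindle microtubules, differed by −0.07 and −0.04 between the groups but by 0.62 and 0.52 between the wild-type arrays. Differences of the other members of this group, Kif20a, Kif2c, Prc1 and Hmmr, lay between −0.07 and 0.10.

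In cytokinesis, a pair of genes that work together stood on opposite sides. Racgap1, which encodes a centralspindlin subunit, measured 3.74 and 3.90 with MMTV-Cre against 3.55 and 3.56 in wild-type, a difference of 0.26 (−0.03 to 0.56). Ect2, the exchange factor that centralspindlin recruits to the cell equator, stood at 4.23 and 4.09 against 4.37 and 4.50, a difference of −0.27 (−0.58 to 0.04). Anln, which encodes the contractile ring protein anillin, stood at 7.40 and 7.42 against 7.21 and 7.52. The difference of Anln was 0.04 (−0.33 to 0.41), with the MMTV-Cre arrays between the wild-type arrays.

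Among genes of chromosome structure, the proliferation markers overlapped between the groups. Top2a, which encodes the topoisomerase that untangles sister chromatids, measured 5.35 and 5.46 with MMTV-Cre against 5.34 and 5.48 in wild-type. Mki67, the source of the Ki-67 antigen of cycling cells, stood at 5.72 and 5.93 against 5.63 and 5.98. In both genes the MMTV-Cre values lay between the wild-type values. Smc4, a core condensin subunit, stood at 7.0 and 7.12 against 7.79 and 7.21, a difference of −0.44 (−0.98 to 0.10). Wild-type replicate 1 was far above the others, and without it the difference was −0.15. Its partner Smc2 differed by −0.15 (−0.63 to 0.34) with wild-type replicate 1 lowest, and the condensin subunit Ncaph by 0.21 with MMTV-Cre replicate 1 highest, and by −0.07 without that array.

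Replicates of a group differed from each other in most of these genes by more than the groups did. In 26 of the 32 tested genes other than Aurka (81.2%) wild-type replicate 2 lay above wild-type replicate 1, where 58.0% of all genes tested did, and the median gap was 0.14 log2 units against 0.04. In the MMTV-Cre arrays the gap leaned the same way, with replicate 2 above replicate 1 in 22 of 32 (68.8%, against 54.4% of all genes) and a median gap of 0.10 against 0.02. The wild-type gap was the larger in size for 16 of the 32 genes and the MMTV-Cre gap for the other 16. Wild-type replicate 1 was the lowest of the 4 arrays for 16 of the 32 genes (50.0%, against 28.9% of all genes), and wild-type replicate 2 the highest for 14 (43.8%, against 28.3%). The mean over the 32 genes deviated from its average by −0.07 in wild-type replicate 1, by 0.08 in wild-type replicate 2, and by −0.04 and 0.03 in the MMTV-Cre arrays. For 28 of the 32 (87.5%, against 78.4% of all genes) the larger gap between replicates exceeded the difference between the groups. In Aurka the gaps between replicates were 0.17 and 0.07, against a group difference of 0.64. In whole cell preparations, fewer dividing cells and less transcript in each dividing cell cannot be told apart.

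**Figure D3:**
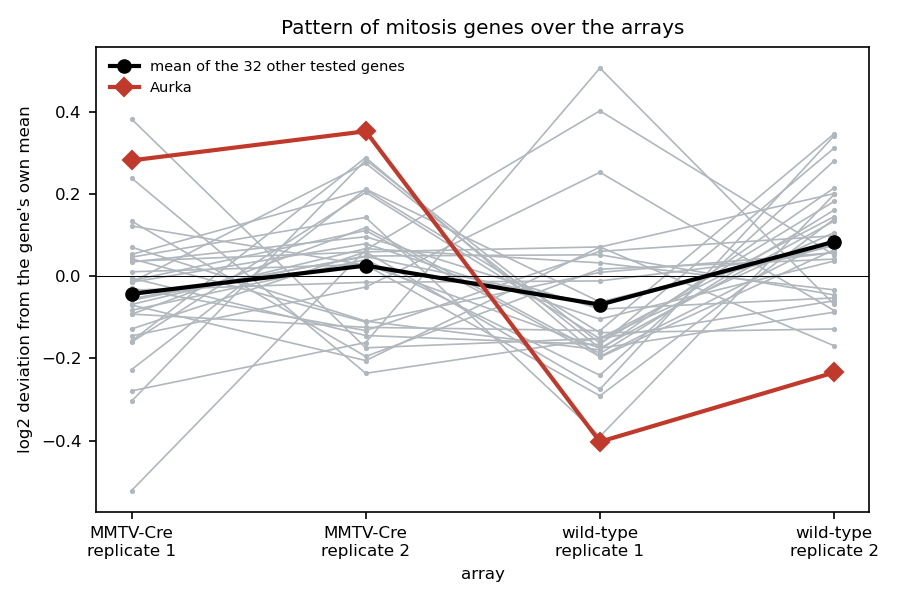
The deviation of each tested mitosis gene from its own mean (y axis, log2) is plotted over the 4 arrays (x axis), with lines that only join the values of a gene. The mean of the 32 genes other than Aurka (black) is lowest in wild-type replicate 1 (−0.07) and highest in wild-type replicate 2 (0.08), whereas Aurka (red) is low in both wild-type arrays (−0.40 and −0.23).

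The direction of the list as a group therefore depended on which array was left out. Without wild-type replicate 1, the array with the T cell transcripts, the median difference of the other members was −0.08. Of the 32, 4 (12.5%, against 27.8% of all genes) were then above the remaining control in both MMTV-Cre arrays and 15 (46.9%, against 35.9%) below it. Without wild-type replicate 2 the median was 0.14, with 16 above (50.0%, against 35.9%) and 8 below (25.0%, against 29.3%). Without MMTV-Cre replicate 1 the median was 0.05, and the remaining MMTV-Cre array lay above both controls for 10 genes (31.2%, against 35.8%) and below both for 8 (25.0%, against 31.8%). Without MMTV-Cre replicate 2 it was −0.06, with 6 above (18.8%, against 32.1%) and 11 below (34.4%, against 37.5%). Aurka minus that median was 0.64 with all arrays and ran from 0.58 to 0.66 when each array was left out. Aurka was chosen for its difference in these same arrays, so this range is a description and no test of the contrast. The part of T cell transcripts, or of those of other cell types, in the low mitotic values of wild-type replicate 1 was not tested.

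The wider mitotic machinery had a median slightly below 0. Of 132 tested genes in 11 further lists of mitosis genes and regulators, 0 passed by limma and 4 had an unadjusted p under 0.05, against 4.32% of all genes. Those were Ska2 and Ska3 above 0, described with the genes nearest to Aurka, and below 0 the kinetochore gene Cenpo at −0.42 (−0.74 to −0.10) and the augmin subunit gene Haus7 at −0.59 (−1.02 to −0.17). Differences lay above 0 for 53 and below for 79, which is 40.2% above 0 against 49.0% of all genes, and the median was −0.04 against −0.0039. It ran from −0.10 without wild-type replicate 1 to −0.0053 without wild-type replicate 2. A list of regulators of G2/M transcription, which also held E2F genes not particular to G2/M, had a median of −0.12. In it 6 of 18 differences lay above 0. By smallest p it was led by the MuvB subunit gene Lin52 at −0.48, E2f3 at 0.35, Tfdp2 at −0.30 and E2f8 at −0.25. Foxm1, Mybl2 and Lin9, chosen after their values were seen, differed by −0.12 (−0.40 to 0.17), 0.04 (−0.46 to 0.54) and −0.14 (−0.46 to 0.19). DNA replication genes had a median of −0.08, with 10 above 0 and 21 below, 0 passed by limma and 1 had an unadjusted p under 0.05. That was the flap endonuclease gene Fen1, which differed by −0.32 (−0.61 to −0.03), with both MMTV-Cre values under the wild-type values, and a second, dim probe set of Fen1 differed by 0.02. Mcm4, of the replicative helicase, differed by −0.24 (−0.52 to 0.03) and Prim2, of the primase, by 0.25 (−0.05 to 0.56), while the 2 probe sets of the ribonucleotide reductase gene Rrm2 disagreed, at −0.28 and 0.07. The median of the replication list was 0.0099 without MMTV-Cre replicate 2. Cell-cycle arrest genes had a median of 0.02, with Ccng2 at −0.38, Btg2 at 0.27 and the Cdk inhibitor genes Cdkn2b and Cdkn1a at −0.26 and 0.17.

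The genes nearest to Aurka in pattern were found by the Euclidean distance between values over the 4 arrays, each gene centred on its own mean. The search covered 164 tested genes of the members and of the further mitotic lists, their regulators included. They were Ska2 at a distance of 0.16, Ska3 at 0.31, the transcription factor gene E2f3 at 0.36, Racgap1 at 0.39 and Ube2c at 0.41. These genes were picked for their likeness to Aurka, itself chosen for being higher with MMTV-Cre, so their separated groups follow from the choice. Differences are therefore given here with no interval, and those of Racgap1 and Ube2c stand above with the other members. Ska2 and Ska3 encode subunits of the complex that holds kinetochores to microtubule ends. Ska2 measured 3.92 and 4.04 with MMTV-Cre against 3.41 and 3.58 in wild-type, a difference of 0.48. A second, dimmer probe set of Ska2 differed by 0.06, with overlapping groups. Ska3 stood at 5.13 and 5.20 against 4.77 and 4.89, a difference of 0.33. The remaining subunit gene Ska1, named after its values were seen, differed by −0.07 (−0.47 to 0.33).

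Aurka lies on chromosome 2, with 6 other measured members, and its neighbours there were examined by gene order in RefSeq. Cstf1, a subunit of the factor that cleaves the ends of transcripts, lies next to it on the other strand, with transcription running outward. The starts of their promoter windows lie 433 bases apart, and the annotated Aurka gene extends past its window start toward Cstf1, to base 172370886. Cstf1 measured 3.81 and 3.88 with MMTV-Cre against 4.07 and 4.08 in wild-type, a difference of −0.24 (−0.51 to 0.04). Its MMTV-Cre values thus lay below its wild-type values, the reverse of Aurka. On the other side Fam210b differed by −0.02 (−0.38 to 0.33). Of the 10 nearest protein-coding genes, 5 on each side, 9 had a value and 5 were tested, with differences from −0.24 to 0.02. Apart from Aurka no tested gene in this stretch was higher in both MMTV-Cre arrays.

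**Figure D4:**
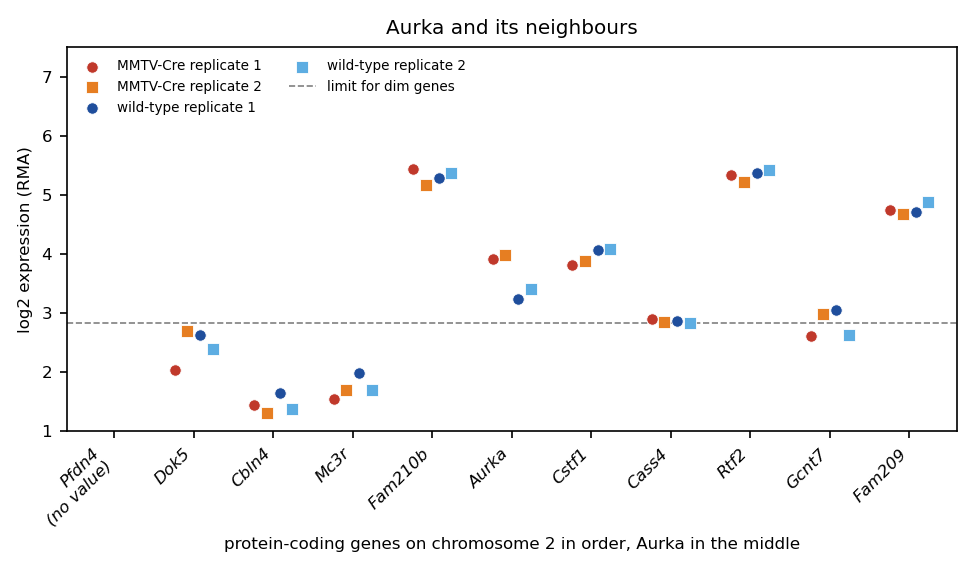
The log2 expression (y axis) of Aurka and of 5 protein-coding genes on each side, in chromosome order (x axis), is plotted for each of the 4 arrays, with points offset sideways and a dashed line at the limit for dim genes. The MMTV-Cre points lie above the wild-type points in Aurka and below them in Cstf1 and Rtf2, and Pfdn4 has no value.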

How the data were processed

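Log2 expression values were deposited for every probe set. The authors made them with oligo and RMA, per the submitters' processing notes, with versions and genome build not given in the sources used here. Labelled cDNA came from 50 ng of total RNA, per the labels' protocols. The log2 scale was read from the values, whose array medians lay between 2.83 and 2.86. RMA equalises the arrays and so hides any shift common to most transcripts.

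Of 41345 probe sets, 23521 had 1 gene symbol in the platform annotation, 1814 several and 16010 none. A gene was represented by its single-symbol probe set with the highest mean over the 4 arrays, and genes with a mean of at least 2.84 were tested. The 2 groups were tested by limma 3.58.1, run in R 4.3.3 (lmFit and eBayes, two-sided, Benjamini-Hochberg over all genes, threshold 0.05). Its p-values set a group difference against the spread between the 2 samples of each group. eBayes draws that spread toward a value shared by all genes tested. On simulated data for this comparison (10 data sets of 11668 genes), 43.4% of planted log2 differences of 1 were recovered, 93.6% of those of 2, and 0.2% of those of 0.5. Each data set held planted differences of 0.5, 1, 2 and 4 together, with noise drawn independently for each gene. The recovered percentages apply to that setting and may not hold for these arrays, where no gene passed.

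The members, the gene lists and the tests were chosen with earlier results of these data known. Named genes were the members, up to 4 per list by smallest p and 5 neighbours on each side of Aurka. The 5 genes of the members and mitotic lists nearest to Aurka in pattern were also named. Promoters are RefSeq's, GRCm38.p6. Alternatives were other filters, probe set rules, scalings and variance models, a replicate block, and leaving out each array. The number of arrays limits precision.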

Additional observations from a re-analysis of the deposited data

How the results depend on the processing

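Aurka minus the median of the other members kept its sign and ran from 0.58 to 0.66 in every alternative where it could be computed. Aurka was chosen for its difference in these arrays, so this range is a description and no test. The stricter filter (a mean of at least 4.56) removed Aurka, and no value could be computed there. Aurka has 1 probe set, so no other was compared. No alternative brought a member past the threshold (0 in each), and the count of all genes was 0 except in the fits without 1 array each, where it ran from 0 to 13, the 13 being without wild-type replicate 2. The median of the other members ran from −0.084 to 0.14 in those fits, members (Aurka included) whose MMTV-Cre values all lay above the wild-type values from 5 to 17, and below from 8 to 15. Fewer arrays separate more easily: over all genes those shares ran from 27.8% to 35.9% above and from 29.3% to 37.5% below. Under the stricter filter, which kept 14 members, 1 was higher and 2 were lower. Quantile normalization and median centring turned the sign of Aurkb (0.012 and 0.0096), Cdc25c (0.0018 and 0.0035), Kif2c (0.028 and 0.023), Plk1 (0.016 and 0.016) and Top2a (0.0035 and 0.018), all near 0. Leaving out 1 array turned more signs, with ranges of −0.11 to 0.20 (Anln), −0.23 to 0.21 (Aurkb), −0.23 to 0.24 (Bub1b), −0.46 to 0.025 (Ccna2), −0.042 to 0.25 (Ccnb2), −0.23 to 0.10 (Cdc20), −0.31 to 0.27 (Cdc25c), −0.10 to 0.49 (Cdk1), −0.14 to 0.23 (Cenpe), −0.064 to 0.37 (Cenpf), −0.30 to 0.22 (Dlgap5), −0.15 to 0.0091 (Hmmr), −0.023 to 0.22 (Kif20a), −0.069 to 0.068 (Kif2c), −0.15 to 0.20 (Mki67), −0.068 to 0.49 (Ncaph), −0.38 to 0.24 (Nusap1), −0.062 to 0.046 (Plk1), −0.23 to 0.16 (Prc1), −0.39 to 0.092 (Smc2), −0.079 to 0.067 (Top2a), −0.0047 to 0.14 (Tpx2) and −0.092 to 0.36 (Ttk). In these fits the lone array of a group took its spread from the other group. With the replicate number as a block, Aurka minus the median was 0.64 and 0 genes passed. Across genes as a whole, same-numbered arrays did not deviate together (r = −0.039). Among the 32 other tested members, replicate 2 lay above replicate 1 for 26 in wild-type and 22 in MMTV-Cre. Leaving out arrays and other scalings for the wider lists, and the shares of separated genes over all genes, were added after the data were seen. Both lists kept a median below 0 under these scalings (−0.018 and −0.013 for the mitotic lists).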
